A study of Mus musculus with 12 samples.

Results

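The secondary and tertiary granule genes of neutrophils were followed across 3 mouse leukaemia lines. The genes were chosen by name: Ltf, Camp, Ngp, Lcn2, Mmp8, Mmp9, Cd177, Fcnb, Hp and Stfa2l1. They, and the gene lists and motifs below, were chosen with earlier results of these data known. Every probe set annotated to 1 of these 10 genes alone was taken, which gave 11 of the 28898 single-gene probe sets on the array, 2 of them for Mmp9. Gene expression was measured on 12 oligonucleotide arrays, 4 from each line. TB13 and TB14 were labelled as expressing both Trib1 and Bcl11a, and the third line, called Trib1, as expressing Trib1 only. All were acute myeloid leukaemia cells without treatment, grown with interleukin-3, and all carried Trib1, the comparison line included. Trib1 encodes a pseudokinase known to promote loss of C/EBPalpha, and Bcl11a a zinc finger repressor. Each label stands for 1 line, and the labels give neither its clonality nor the cultures behind its 4 arrays. The p-values below measure only how arrays of a line scatter, which may be technical scatter, and say nothing of how lines of a kind vary.

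Neutrophils build their granules in sequence. Primary granules with myeloperoxidase form at the promyelocyte stage, secondary granules with lactoferrin, lipocalin 2 and cathelicidin at the myelocyte and metamyelocyte stages, and tertiary granules with gelatinase later still. C/EBPepsilon is known to be required for secondary granule gene expression, and PU.1, the product of Spi1, acts on many myeloid genes. By its title, the series is about Bcl11a acting against PU.1 in leukaemia.

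Values are MAS5 intensities on a linear scale, and log2 changes are differences of log2(intensity + 12.7), which understates changes of dim genes. Arrays of a line correlated at 0.9953 or above. The TB13 arrays stood apart: their 18 hybridization control probe sets, which report transcripts added to each sample, had a median log2 difference of -0.93 from Trib1, with 17 of 18 lower, against 0.0010 for TB14. The median log2 change over all 17475 probe sets tested was -0.39 for TB13 as deposited, -0.031 after quantile scaling and 0.56 after calibration on those controls, and 0.0084, 0.0052 and -0.025 for TB14 in the same order. TB13 changes are as deposited unless another scaling is named, and most are given under 1 or both of the other scalings as well. In bulk RNA, a smaller share of cells expressing a gene and less RNA per cell cannot be told apart.

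The 2 Bcl11a lines differed from the Trib1 line in different granule genes. In TB14, Stfa2l1, Hp and Ngp read 10.3, 4.32 and 3.91 times the Trib1 level, and Mmp8 and Camp 2.31 and 1.56 times. In TB13, Mmp8 read 2.91 times the Trib1 level, while Lcn2 stood at 0.167 and Ltf at 0.557 of it. As deposited, Mmp8 was the member called higher in both lines. After quantile scaling Ngp was too, and under calibration Camp, Ngp, Hp and Stfa2l1 were. Calibration, however, called 13088 of all 17475 probe sets tested higher in TB13. The share called higher in TB13 was 37% after quantile scaling and 26% as deposited. Fcnb, Cd177 and both Mmp9 probe sets were dim, at or below 28.7 intensity units on every array, where array medians were 25.5 to 25.9 in TB13 and 20.8 to 21.4 in the others.

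**Figure D1:**
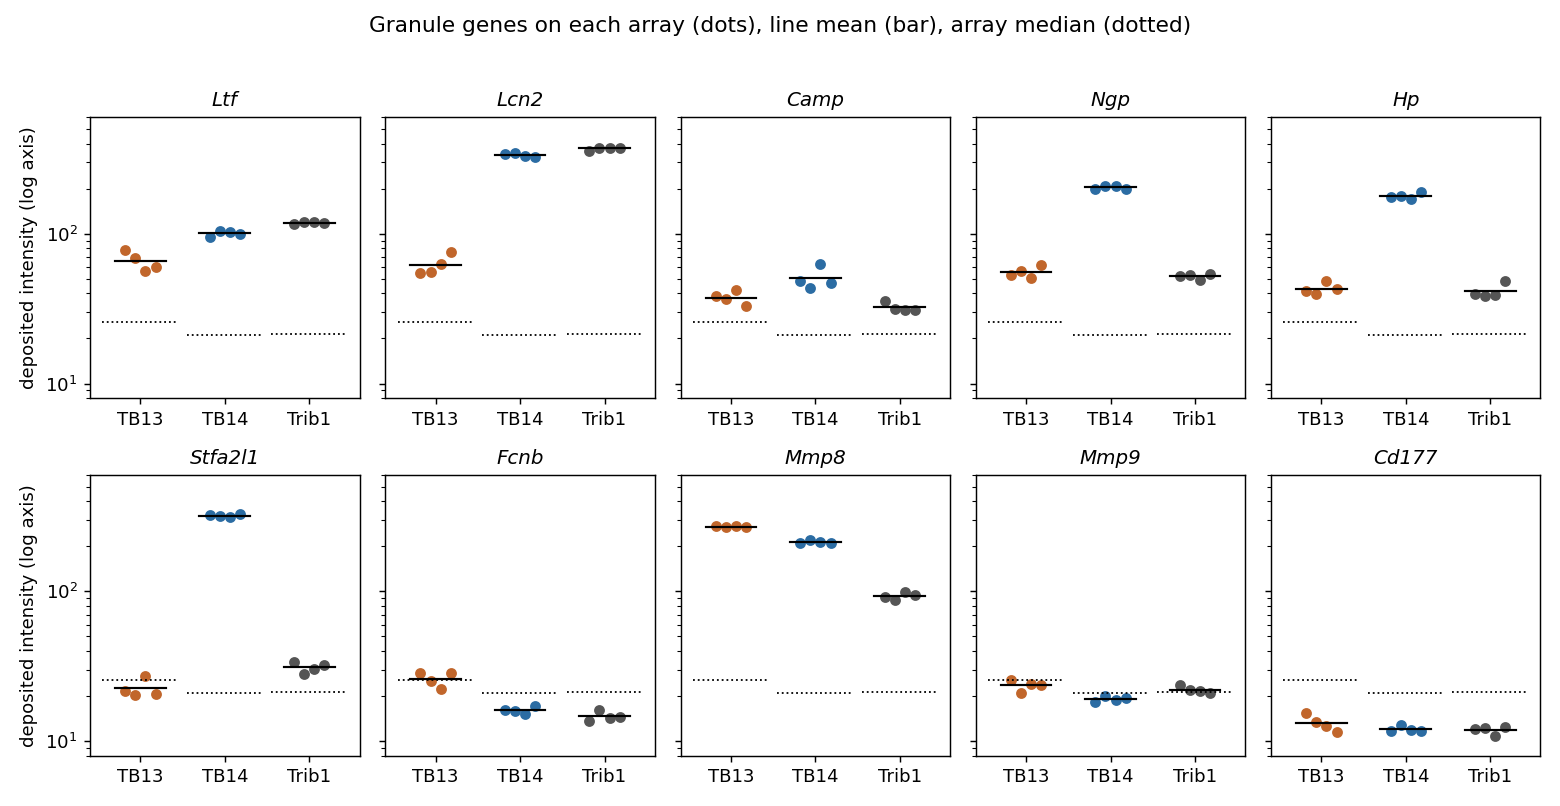
Deposited intensity (log axis) of the 10 granule genes on each array, 1 probe set per gene, with the 4 arrays of each line as dots, the line mean as a bar and the mean of the array medians as a dotted line. Ngp, Hp and Stfa2l1 stand out in TB14, Lcn2 is low in TB13, and Mmp8 is higher in TB13 and TB14 than in Trib1.

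Of the 11 probe sets, 8 passed the filter on dim values, which asked for an intensity above the array's median on at least 4 of 12 arrays. They stood for Ltf, Camp, Ngp, Lcn2, Mmp8, Hp, Stfa2l1 and the brighter Mmp9 probe set. This Mmp9 probe set passed on exactly 4 arrays, from Trib1 and TB13 and not TB14. Fcnb, just outside, was above the median on 2 arrays, and the other Mmp9 probe set and Cd177 on none. In TB14 against Trib1, 5 of the 8 were called higher and 2 lower by limma with Benjamini-Hochberg adjustment, where 29.6% of all probe sets tested were called higher and 20% lower. Rises of 2-fold or more were found in 4 of the 8, against 0.996% of all probe sets tested. As the members were chosen with earlier results known, these shares are descriptive only. After quantile scaling 5 of the 8 were called higher and 0 lower in TB14 (2 lower at an unadjusted p under 0.05), against 25% and 18.9% of all. In TB13 against Trib1, 1 of the 8 was called higher and 3 lower, where the shares of all probe sets were 26% and 64.4%. After quantile scaling these counts were 2 and 4, against 37% and 43%. The median log2 change of the 8 was 0.79 in TB14 and 0.054 in TB13, or 0.69 and -0.040 after quantile scaling.

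**Figure D2:**
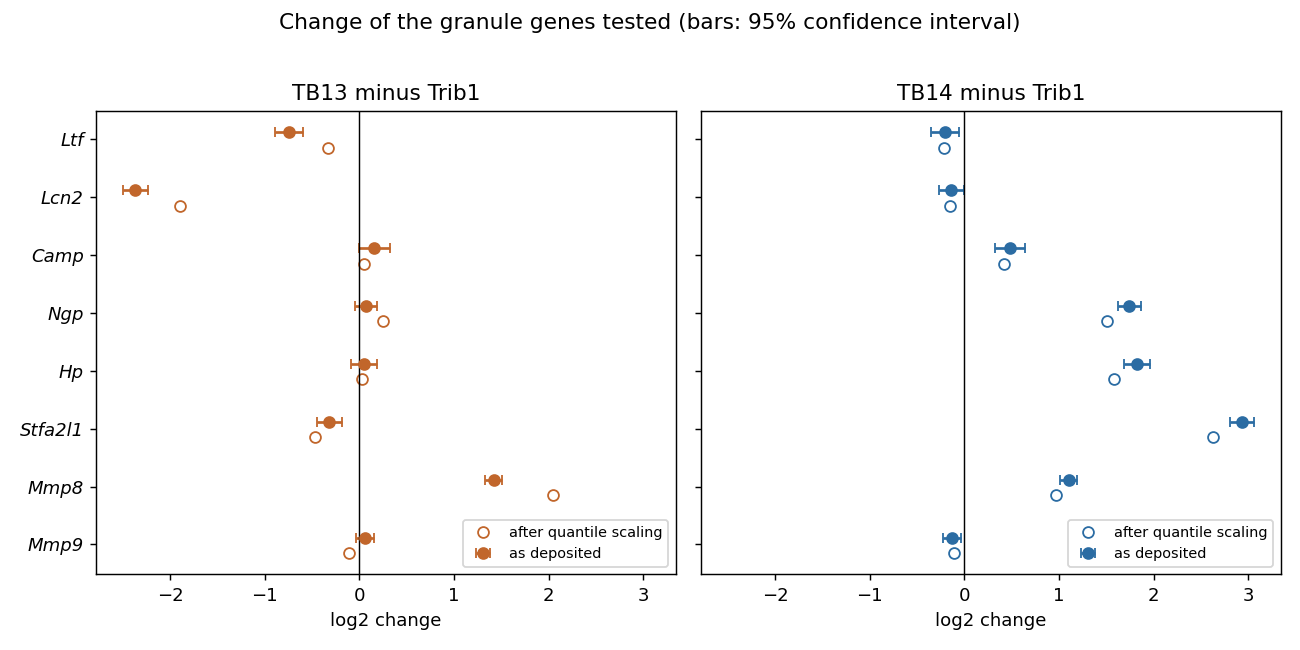
Log2 change against Trib1 of the 8 granule genes tested, in TB13 (left) and TB14 (right), as deposited (filled, with 95% confidence intervals) and after quantile scaling (open). As deposited, Lcn2 (-2.37) and Mmp8 (1.42) in TB13 and Stfa2l1 (2.93), Hp (1.83), Ngp (1.74) and Mmp8 (1.10) in TB14 lie beyond 1 in either direction. Calibration, not drawn, turns Ltf and Stfa2l1 in TB13, and quantile scaling turns Mmp9.

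Among the iron-handling proteins, Ltf encodes lactoferrin, which binds iron and is the classical marker of secondary granules. It read 78.1, 69.1, 56.0 and 60.3 on the TB13 arrays, 94.6, 104.8, 103.4 and 100.3 on the TB14 arrays, and 115.7, 120.3, 119.5 and 117.5 in Trib1. All TB13 and TB14 values lay below the lowest Trib1 value. The log2 change in TB13 was -0.75 ± 0.069 (SE; limma adjusted p = 4.39e-09) as deposited, -0.33 after quantile scaling (adjusted p = 0.00487), and turned to 0.40 under calibration on the controls. In TB14 it was -0.21 ± 0.069 (adjusted p = 0.0176), a call that ended after quantile scaling (-0.22, adjusted p = 0.0799) and without TB14 replicate 1 (-0.18, adjusted p = 0.062).

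Lcn2 encodes lipocalin 2, which withholds iron from bacteria by binding their siderophores. Its intensity was 54.6, 55.4, 63.3 and 75.3 in TB13, 340.3, 347.2, 332.7 and 324.4 in TB14, and 358.8, 376.2, 375.9 and 372.1 in Trib1. The TB13 arrays were far below both other lines, and the TB14 arrays lay just below Trib1 without overlap. Lcn2 fell in TB13 by 2.37 ± 0.064 on the log2 scale (SE; limma adjusted p = 7.01e-17), with -1.89 after quantile scaling and -1.27 under calibration. Among the probe sets of an array, it stood on average at percentile 72.1 in TB13, 88.1 in TB14 and 89.2 in Trib1. In TB14 the log2 change of -0.14 did not pass (95% interval -0.271 to -0.00193, adjusted p = 0.088). It passed with a pseudocount of 50 (-0.12, adjusted p = 0.0343) and without TB13 replicate 4 (-0.14, adjusted p = 0.00925).

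Hp encodes haptoglobin, a carrier of free haemoglobin made mainly in the liver and also stored in neutrophil granules. It read 41.3, 39.8, 48.2 and 42.8 in TB13, 175.2, 179.4, 171.1 and 188.6 in TB14, and 39.4, 38.5, 39.0 and 48.4 in Trib1. The TB14 arrays were separate from all others, while TB13 and Trib1 overlapped. The log2 change in TB14 was 1.83 ± 0.064 (SE; limma adjusted p = 8.98e-15). In TB13 it was 0.047 (95% interval -0.0881 to 0.182, adjusted p = 0.492) as deposited, 0.031 after quantile scaling and 1.22 under calibration. Among genes for partners of haptoglobin and lipocalin 2, 6 of 7 listed had a single-gene probe set and 2, Slc22a17 and Hmox1, were tested. Slc22a17 encodes a lipocalin 2 receptor and Hmox1 the haem-degrading enzyme. Their log2 changes in TB14 of -0.048 and 0.12 did not pass (limma adjusted p = 0.496 and 0.074). In TB13 Slc22a17 had 0.32 and Hmox1 -0.48 as deposited (adjusted p = 1.02e-05 and 6.03e-08), with 0.19 for Slc22a17 after quantile scaling, and 1.51 and 0.70 under calibration.

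Camp and Ngp encode related proteins with a cathelin-like domain, Camp being the precursor of the mouse cathelicidin peptide and Ngp a neutrophil granule protein described in mouse bone marrow. Camp read 38.4, 36.4, 41.8 and 32.7 in TB13, 48.4, 43.4, 62.8 and 46.7 in TB14, and 35.7, 31.3, 30.8 and 31.0 in Trib1. The TB14 values were all above the other lines, and TB13 overlapped Trib1. The log2 change in TB14 was 0.48 ± 0.078 (SE; limma adjusted p = 3.2e-05). In TB13 it was 0.16 (95% interval -0.00763 to 0.318, adjusted p = 0.0664) as deposited and 0.050 after quantile scaling (adjusted p = 0.58). It passed when TB13 replicate 4 (adjusted p = 0.0247), Trib1 replicate 1 (0.0401) or TB14 replicate 3 (0.0223) was left out, with the replicate number as a block (0.0389), and under calibration (1.34).

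Ngp read 53.3, 56.0, 50.9 and 62.1 in TB13, 197.4, 209.3, 209.0 and 199.2 in TB14, and 51.9, 53.2, 49.4 and 53.9 in Trib1. The TB14 arrays again stood clear of the other lines, which overlapped each other. The log2 change in TB14 was 1.74 ± 0.055 (SE; limma adjusted p = 1.8e-15). In TB13 it was 0.073 (95% interval -0.0425 to 0.189, adjusted p = 0.213) as deposited, 0.25 after quantile scaling, where it passed (adjusted p = 0.00438), and 1.22 under calibration.

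Stfa2l1 belongs to the stefin A cluster of mouse, whose products inhibit cysteine proteases and are abundant in neutrophils. It read 21.6, 20.3, 27.3 and 20.8 in TB13, 321.3, 319.9, 312.4 and 326.8 in TB14, and 33.9, 28.0, 30.3 and 32.2 in Trib1. The TB14 arrays were far above all others, and the TB13 values, near the array median, were all below the lowest Trib1 value. The log2 change in TB14 was 2.93 ± 0.063 (SE; limma adjusted p = 4.97e-18), and 3.33 with a pseudocount of 1. In TB13 it was -0.32 (adjusted p = 9.93e-05) as deposited and -0.47 after quantile scaling, but 0.89 under calibration, so its direction in TB13 rested on the scaling. Stefin A genes are close copies of each other, which makes the gene behind this probe set uncertain. The Stfa3 probe set, for another member of the cluster, read 16.1, 16.0, 16.5 and 16.2 in TB13, 82.2, 74.8, 81.8 and 82.4 in TB14, and 11.7 to 13.3 in Trib1. It passed the filter only through its 4 TB14 arrays.

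Mmp9, and Hp, which changed 2-fold or more in TB14, had no promoter entry. The promoters of Ngp, Mmp8, Lcn2 and Stfa2l1, which changed 2-fold or more in a line, are shown. Their letters can thus be set beside the changes. Each is the 250 bases before the gene's start in RefSeq (build GRCm38.p6), 5′ to 3′ on the gene's strand. Capitals mark TTGCNNAA, a form of the motif bound by C/EBP factors, and GAGGAA, a form of the motif bound by PU.1, on either strand (TTNNGCAA and TTCCTC on the other).
Ngp, chr9:110419558-110419807, plus strand: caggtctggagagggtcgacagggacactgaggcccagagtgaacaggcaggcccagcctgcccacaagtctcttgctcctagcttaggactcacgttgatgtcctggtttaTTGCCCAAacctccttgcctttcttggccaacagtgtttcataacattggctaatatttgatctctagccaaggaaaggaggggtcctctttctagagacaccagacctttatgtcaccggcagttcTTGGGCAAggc
Mmp8, chr9:7558179-7558428, plus strand: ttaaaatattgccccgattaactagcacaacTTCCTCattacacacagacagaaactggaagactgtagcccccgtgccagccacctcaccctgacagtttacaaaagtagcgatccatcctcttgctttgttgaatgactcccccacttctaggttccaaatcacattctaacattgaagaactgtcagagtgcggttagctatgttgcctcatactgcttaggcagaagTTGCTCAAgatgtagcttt
Lcn2, chr2:32387740-32387989, minus strand: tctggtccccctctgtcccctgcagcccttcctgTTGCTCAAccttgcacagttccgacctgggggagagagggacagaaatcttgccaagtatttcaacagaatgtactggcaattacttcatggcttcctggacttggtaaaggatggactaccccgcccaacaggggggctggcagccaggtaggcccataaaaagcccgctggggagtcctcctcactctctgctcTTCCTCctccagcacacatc
Stfa2l1, chr16:36156561-36156810, plus strand: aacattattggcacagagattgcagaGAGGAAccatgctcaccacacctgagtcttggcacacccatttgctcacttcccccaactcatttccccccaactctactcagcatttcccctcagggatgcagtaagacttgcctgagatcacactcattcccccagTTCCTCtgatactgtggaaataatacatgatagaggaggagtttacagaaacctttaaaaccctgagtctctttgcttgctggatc

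Of the 8 members with a promoter entry, 5 held the C/EBP letters, against 9.56% of all 32851 promoter windows, and 5 the PU.1 letters, against 23.3%. No match of one overlapped a match of the other. Ngp had TTGCCCAA beginning 138 bases before the start and TTGGGCAA beginning 11 bases before it. Mmp8 had TTGCTCAA 19 bases before the start, Lcn2 the same letters 216 bases before it, and Ltf TTGGGCAA 75 bases before it. Fcnb held 2 matches, and Camp, Cd177 and Stfa2l1 none. Stfa2l1, the member with the largest rise in TB14, held 2 matches to the PU.1 letters, and Ngp none. Members and motifs were chosen with earlier results of these data known, so these shares do not test for enrichment. Matches are a description of these letters only, and the arrays did not measure binding.

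Of the metalloproteinases, Mmp8 encodes neutrophil collagenase of the secondary granules. It read 274.7, 267.5, 271.1 and 268.5 in TB13, 211.7, 221.6, 215.1 and 209.8 in TB14, and 92.0, 87.6, 98.8 and 93.9 in Trib1. The 3 lines did not overlap, with TB13 highest. Mmp8 rose by 1.42 ± 0.043 on the log2 scale in TB13 and by 1.10 ± 0.043 in TB14 (SE; limma adjusted p = 2.71e-16 and 4.01e-14). After quantile scaling it was 2.04 in TB13 and 0.97 in TB14, and under calibration 2.37 and 1.12. Mmp8 stood on average at percentile 91.2 of the probe sets in TB13, 83.2 in TB14 and 73.7 in Trib1.

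Mmp9 encodes gelatinase B, which defines tertiary granules. Its brighter probe set read 25.6, 20.97, 24.1 and 23.8 in TB13, 18.3, 20.0, 18.9 and 19.4 in TB14, and 23.7, 22.0, 21.8 and 20.8 in Trib1, and its dimmer one 11.6 to 15.7 over all arrays. TB14 lay below Trib1 on the brighter probe set, narrowly, and TB13 overlapped Trib1. The log2 change in TB14 of -0.13 passed (limma adjusted p = 0.0264). No TB14 array was among the 4 through which this probe set passed the filter. The call ended under quantile scaling (adjusted p = 0.0526), and without Trib1 replicate 1 (0.0952), Trib1 replicate 2 (0.0506), TB14 replicate 1 (0.0763) or TB14 replicate 3 (0.0611). In TB13 it was 0.062 as deposited (adjusted p = 0.202), -0.11 after quantile scaling and 1.27 under calibration. Of 10 genes for gelatinase inhibitors and other matrix metalloproteinases, 3 were tested. Timp3, a secreted metalloproteinase inhibitor, was the one called in both lines, at 0.38 in TB13 (1.56 under calibration) and -0.33 in TB14, and another probe set of it read -0.12 and -0.45.

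Fcnb encodes ficolin B, a lectin of immature neutrophils that binds bacterial sugars, and Cd177 a surface glycoprotein of neutrophils. Fcnb read 28.5, 25.1, 22.3 and 28.7 in TB13, 16.1, 15.8, 15.2 and 17.1 in TB14, and 13.7, 16.0, 14.3 and 14.5 in Trib1. The TB13 values were all above Trib1, though around the median of their own arrays. Without the filter its log2 change in TB13 was 0.51 (limma adjusted p = 9.77e-09), in a fit that called 42.3% of 28898 probe sets higher. Cd177 read 11.5 to 15.5 in TB13, 11.7 to 12.7 in TB14 and 10.8 to 12.3 in Trib1, and the ranges overlapped.

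The difference between the 2 Bcl11a lines was tested directly. Of the 8 probe sets 6 were called higher in TB14 than in TB13 and 2 lower, where 65.2% and 26% of all probe sets were. After quantile scaling 5 were called higher and 1 lower, against 44.8% and 35.9%. Stfa2l1 differed by 3.25 ± 0.063 on the log2 scale, Lcn2 by 2.23 ± 0.064, Hp by 1.78 ± 0.064 and Ngp by 1.67 ± 0.055 (SE; limma adjusted p = 1.97e-18, 1.95e-16, 2.89e-15 and 9.55e-16). These 4 remained higher in TB14 after quantile scaling, at 3.10, 1.74, 1.55 and 1.26, and under calibration, at 2.08, 1.14, 0.60 and 0.52. Mmp8 was lower in TB14 than in TB13 by -0.32 as deposited and -1.07 after quantile scaling (adjusted p = 8.89e-07 and 1.26e-12). For Ltf and Camp the difference of 0.54 and 0.33 turned to -0.64 and -0.92 under calibration. After quantile scaling the differences of Ltf (0.11, limma adjusted p = 0.286) and Mmp9 (0.00082, adjusted p = 0.987) did not pass.

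**Figure D3:**
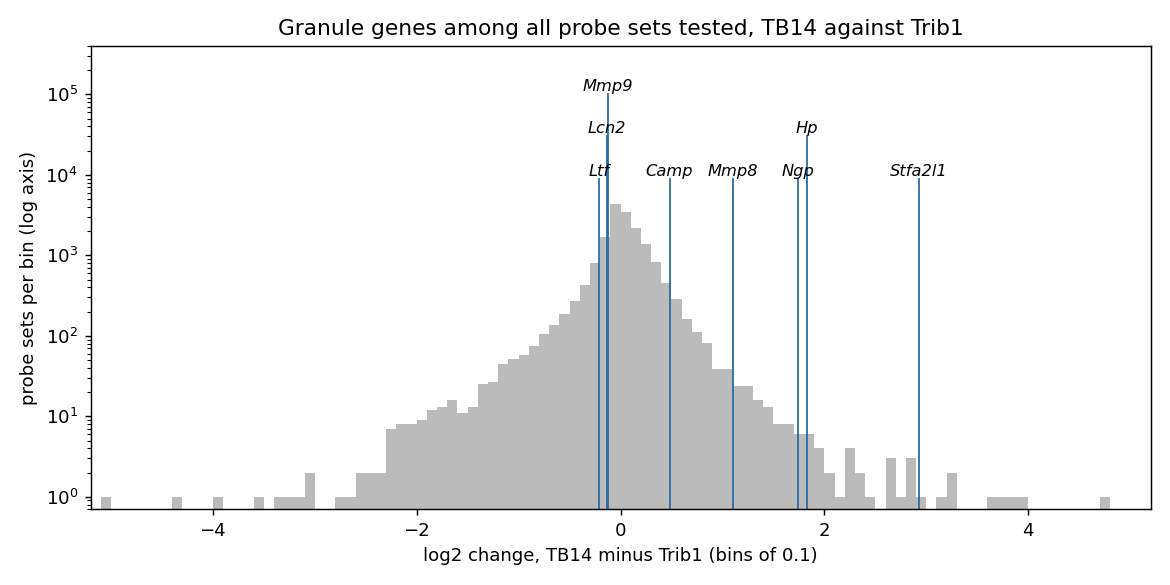
Log2 change in TB14 against Trib1 for the 17475 probe sets tested (grey bars, bins of 0.1, log axis), with the 8 granule probe sets as labelled lines. Stfa2l1, Hp, Ngp and Mmp8 lie beyond 1, where 0.996% of the probe sets were called higher, and Ltf, Lcn2 and Mmp9 lie near the centre.

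Over both Bcl11a lines, weighted equally, against Trib1, 5 of the 8 were called higher and 2 lower, where 25.9% and 55.1% of all probe sets were, or 5 and 3 after quantile scaling, against 34.5% and 33.6%. Stfa2l1, at 1.31, averaged a rise in TB14 and a small fall in TB13, and Lcn2, at -1.25, mostly a fall in TB13. Mmp8, at 1.26 ± 0.037 (SE; limma adjusted p = 3.55e-16), was the member called higher in each line as deposited. With each line's mean as 1 sample, Mmp8 stayed at 1.26 and Lcn2 at -1.25. The Trib1 side then held 1 value. That fit could decide little about any probe set, and no result about the granule genes is drawn from it.

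The genes nearest to Stfa2l1 in their pair of log2 changes as deposited, among 10651 named genes, were Lbp, Plin3 and Hp. Lbp, which encodes a lipopolysaccharide-binding protein, had 0.27 in TB13 and 2.07 in TB14, at a distance of 1.04 log2 units. Plin3, which encodes a lipid droplet protein, had 0.48 and 2.09, and Hp 0.047 and 1.83, both at a distance of 1.16. Both changes share the Trib1 arrays.

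Of 33 other secondary and tertiary granule genes listed, 24 had a single-gene probe set and 14 were tested. In TB14 5 were called higher and 9 lower, where 29.6% and 20% of all probe sets were, with a median of -0.18 against 0.0084 over all probe sets. In TB13 4 were called higher and 10 lower as deposited, near the 26% and 64.4% of all probe sets, and 3 and 9 after quantile scaling, against 37% and 43%. The TB13 median was -0.69 as deposited, against -0.39 over all, and -0.31 after quantile scaling, against -0.031. Pglyrp1, a peptidoglycan-binding protein of neutrophil granules, fell to 66.8 ± 8.22 in TB13 and 182.4 ± 4.03 in TB14, against 472.0 ± 16.8 in Trib1 (SD, n = 4 each). Itgam, the CD11b integrin chain stored in granule membranes, fell to 32.9 ± 5.87 and 153.8 ± 9.35, against 260.5 ± 2.09 in Trib1. Slpi, an inhibitor of neutrophil serine proteases, fell to 230.1 ± 25.7 and 239.5 ± 7.42, against 704.5 ± 30.6. Their log2 changes were -2.61, -2.59 and -1.57 in TB13 and -1.31, -0.72 and -1.51 in TB14, and all passed limma. Under calibration the TB13 changes were -1.54, -1.41 and -0.71. Stfa3 had 0.20 in TB13, with 0.075 after quantile scaling (adjusted p = 0.103) and 1.41 under calibration, and 1.88 in TB14. Stfa3 is among the 5 called higher in TB14. It passed the filter only through its 4 TB14 arrays, so the filter favoured that call.

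**Figure D4:**
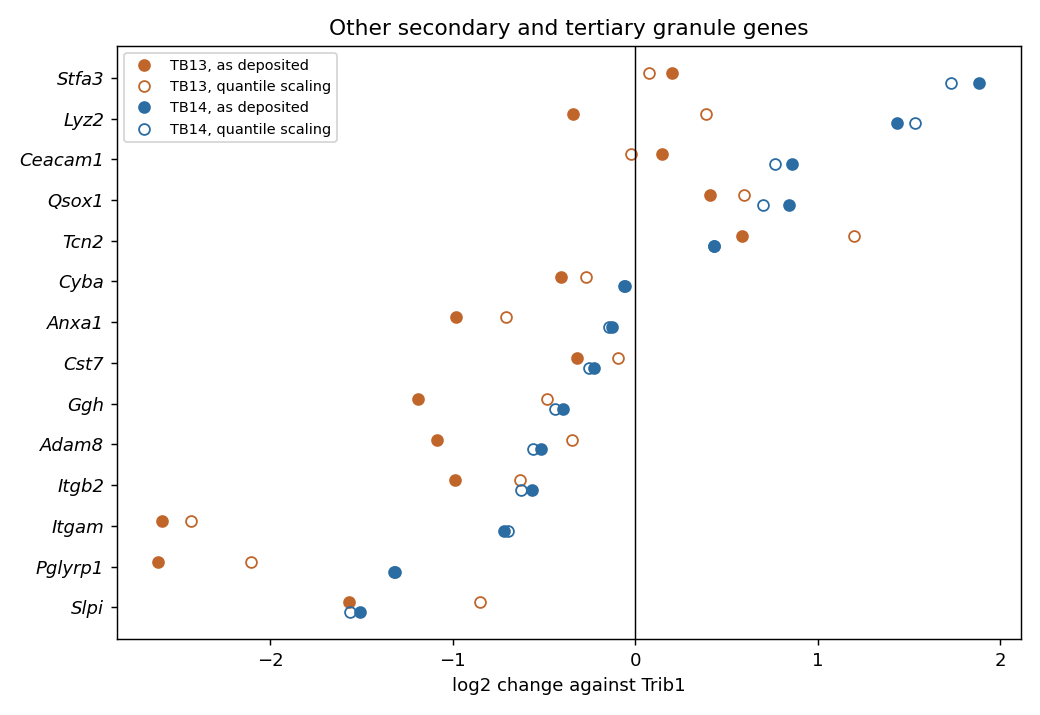
Log2 change against Trib1 of the 14 other secondary and tertiary granule genes tested, in TB13 and TB14, as deposited (filled) and after quantile scaling (open). Stfa3 is farthest to the right in TB14, at 1.88, and passed the filter only through its 4 TB14 arrays. Pglyrp1 and Itgam are farthest to the left in TB13, at -2.61 and -2.59.

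The 15 mature neutrophil genes tested were for surface proteins, apart from the cytokine gene Il1b. In TB13 5 of the 15 were called higher and 8 lower, where 26% and 64.4% of all probe sets were. After quantile scaling the TB13 counts were again 5 and 8, against 37% and 43%. In TB14 4 were called higher and 9 lower, where 29.6% and 20% were. Il1r2, the interleukin-1 decoy receptor, had log2 changes of -3.12 in TB13 (-2.18 under calibration) and -1.98 in TB14. Trem3 and Trem1, activating receptors of myeloid cells, had -2.10 and -1.66 in TB13 (-1.02 and -0.58 under calibration) and -0.57 and -0.97 in TB14. Cd24a, a surface glycoprotein of precursors and neutrophils, had -1.11 in TB13 and -1.56 in TB14. Genes of the list called higher in both lines included Csf3r, the receptor for granulocyte colony-stimulating factor, at 0.70 in TB13 and 0.65 in TB14. The chemokine receptor gene Cxcr2 had 0.36 and 0.34, and the formyl peptide receptor gene Fpr2 0.63 and 0.23, and under calibration these TB13 changes were 1.83 for Csf3r, 1.57 for Cxcr2 and 1.81 for Fpr2. The Fpr2 call in TB14 ended under calibration (adjusted p = 0.0881). Cxcr2 and Fpr2 passed the filter through TB13 and TB14 arrays alone. Their Trib1 values, 16.02 to 18.98 and 19.35 to 20.97, all lay below the array medians.

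The factors that act on granule genes moved unequally. Of 10 tested, 3 were called higher and 7 lower in TB13, against 26% and 64.4% of all probe sets, or 4 and 2 after quantile scaling, against 37% and 43%. In TB14 5 were called higher and 4 lower, against 29.6% and 20%. Cebpe was not analysed here. Gfi1, a repressor needed for neutrophil precursors, read 41.7 ± 4.85 in TB13 and 148.1 ± 2.41 in TB14, against 35.1 ± 1.88 in Trib1 (SD, n = 4 each). Cebpd, which encodes C/EBPdelta, read 50.2 ± 10.4 in TB13 and 154.9 ± 9.83 in TB14, against 63.3 ± 5.18 in Trib1. Their log2 changes in TB14 were 1.75 and 1.14 (limma adjusted p = 6.66e-15 and 3.81e-09), and in TB13 0.18 and -0.29, with 1.36 and 0.88 under calibration, neither of which passed after quantile scaling (adjusted p = 0.129 and 0.328). Spi1 had -1.11 in TB13 as deposited, -0.38 after quantile scaling and -0.24 under calibration, and -0.37, -0.42 and -0.38 in TB14, so that a larger fall in TB13 was seen only as deposited. Cebpa had -0.43 in TB13 and -0.26 in TB14, with -0.086 in TB13 after quantile scaling and 0.034 under calibration (adjusted p = 0.478). Cux1, which encodes a known repressor of lactoferrin expression, had -0.83 in TB13 and -0.45 in TB14, with -0.075 in TB13 after quantile scaling (adjusted p = 0.0804) and 0.083 under calibration, and another of its probe sets read 0.13 in TB14.

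S100a8 and S100a9 had log2 changes of 4.71 and 3.85 in TB14 and of -0.70 and -1.15 in TB13, with -0.81 and -0.65 in TB13 after quantile scaling and 0.50 and -0.015 under calibration. A list of 9 genes of promyelocytes and primary granules held Serpinb1a, Ms4a3 and Hdc beside granule protein genes. Of the 9, 7 were called higher and 1 lower in TB14, against 29.6% and 20% of all probe sets. In TB13 3 were called higher and 4 lower, against 26% and 64.4%, or 5 and 3 after quantile scaling, against 37% and 43%. Their summed intensity was 15880 to 16130 in TB13, 22070 to 22280 in TB14 and 16080 to 16620 in Trib1. Mpo had 1.86 in TB13 and 3.28 in TB14, and Elane 0.82 (1.32 after quantile scaling) and 2.71. Prtn3 had -0.17 and 0.66, with 0.023 in TB13 after quantile scaling and 0.093 under calibration, and Ctsc -0.52 (-0.32 after quantile scaling) and -0.36.

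Markers of other blood cell types were compared across the lines as well. The summed intensity of 9 monocyte and macrophage genes was 1303 to 1500 in TB13, 1506 to 1537 in TB14 and 3404 to 3601 in Trib1, and 6 of 7 tested were called lower in each line, against 64.4% of all probe sets in TB13 and 20% in TB14. Among them F13a1 passed the filter only through its 4 Trib1 arrays. F13a1, Cd68, Csf1r and Ccr2 had log2 changes of -3.34, -2.35, -1.17 and -0.94 in TB13, with -2.17, -1.41, -0.033 and -0.39 under calibration, which ended the Csf1r call, and -3.58, -1.46, -1.29 and -1.25 in TB14. Of 7 mast cell and basophil genes tested, 2 were called higher and 3 lower in TB13, against 26% and 64.4% of all, and 5 higher and 2 lower in TB14, against 29.6% and 20%. Their sum over 8 genes was 7828 to 8039 in TB13, 9782 to 9865 in TB14 and 8944 to 9056 in Trib1. Cpa3 made up most of each sum, at means of 6153, 6127 and 5973 in the same order. Ms4a2 had 1.46 in TB13 and 2.88 in TB14, Fcer1a -0.95 and -1.61, Cma1 -1.19 and -1.15, and Mcpt8 -1.41 and 0.13. Under calibration the TB13 changes were 2.43 for Ms4a2, -0.059 for Fcer1a (adjusted p = 0.329), 0.0027 for Cma1 and -0.88 for Mcpt8, and Fcer1a had -0.21 after quantile scaling. The sums of 6 eosinophil genes were 499.3 to 529.5 in TB13, 922 to 930.4 in TB14 and 1284 to 1309 in Trib1. Most of each sum was Siglecf, which fell to 417.5 in TB13 and 831.9 in TB14, against 1208 in Trib1. Its log2 changes under calibration were -0.82 and -0.55. The granule protein genes Prg2 and Epx lay between means of 10.5 and 15.9 intensity units, below the array medians. Of 4 erythroid genes tested, 3 were called higher and 1 lower in TB13, against 26% and 64.4% of all. After quantile scaling 3 were called higher and 0 lower there, against 37% and 43%. Alas2, among those called higher as deposited, passed the filter through TB13 and TB14 arrays alone. Its TB13 call (0.27) ended after quantile scaling (0.10, limma adjusted p = 0.0752). In TB14 2 were called higher, against 29.6%, or 1 after quantile scaling, against 25%. Sums over 6 genes were 1744 to 1898 in TB13, 1706 to 1742 in TB14 and 1072 to 1125 in Trib1. Hba-a1 made up most of each erythroid sum, at means of 1519, 1459 and 856.8 in the same order. Its log2 changes were 0.82 in TB13 (1.26 under calibration) and 0.76 in TB14. Gata1 had -0.26 and 0.22, turning to 0.35 in TB13 after quantile scaling and 0.83 under calibration. The Gata1 call in TB14 (limma adjusted p = 0.0215) ended after quantile scaling (0.16, adjusted p = 0.214) and without Trib1 replicate 1 (0.0753), Trib1 replicate 2 (0.0541) or TB14 replicate 4 (0.0793). No marker was listed at 0. Whether these shifts contributed to the changes in granule genes was not tested.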

How the data were processed

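Values were intensities deposited by the authors on a linear scale, made with MAS5 per the submitters' processing notes. The scaling target, the MAS5 version and the probes' genome build: not given in the sources used here. Of 45141 probe sets, 104 controls were left out. Platform annotation gave 1 gene to 28898 of the rest, several to 551 and none to 15588, and all 10 members kept their symbols against the RefSeq gene table. Medians were taken over all probe sets of an array.

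Tests ran in limma 3.58.1 under R 4.3.3, on log2(intensity + 12.7), 12.7 being the 25th percentile of all values. A probe set was tested if at least 4 of 12 arrays had it above their own median, which left 17475 for 11223 genes. All 12 arrays entered 1 linear model with 3 groups, moderated variances with a trend, and Benjamini-Hochberg adjustment over all probe sets tested, at a threshold of 0.05. Tests were two-sided, and the number of arrays limits the precision. Where a gene had several probe sets, the brightest tested stood for it.

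Calibration on the controls brought each array to the mean of the 18 hybridization controls over the arrays by a quadratic curve, with the correction held constant outside their range. Other alternatives were quantile scaling, other filters, pseudocounts (1 and 50), no variance trend, a replicate block, 1 probe set per gene, a 2-fold threshold, line means, and leaving out each array or TB13. On simulated data for TB14 against Trib1 (17475 probe sets), the test recovered 70% of 50 simulated 1.2-fold changes and 100% of 2-fold changes. It called 0.0116% of unchanged probe sets. There 17275 probe sets were unchanged and noise was independent, whereas 29.6% and 20% of real probe sets were called higher and lower. These rates are therefore not error rates of the calls above.

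Members, gene lists and motifs were chosen with earlier results of these data known. Genes named were the members, Cebpa, Spi1, Gfi1, Cebpe, S100a8, S100a9, Mpo and Elane, up to 4 genes per list with the largest change over both lines among those called in both, and the 3 nearest to the member with the largest change in TB14. From the list of haptoglobin and lipocalin partners, where that rule took none, the 2 tested were named after their values were seen. So were Prg2, Epx, Csf3r, Cxcr2, Fpr2 and Alas2. Promoter sequences came from RefSeq (GRCm38.p6). The same replicate numbers in the lines did not pair the arrays: of 12 pairs with a shared number, 1 had deviations correlated above 0.1 (-0.0953 to 0.133). Figures were drawn with matplotlib 3.10.9.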

Additional observations from a re-analysis of the deposited data

Results flagged for a closer look

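As deposited, all 8 members tested differed between TB14 and TB13, by the test of TB14 minus TB13 itself. Of all probe sets tested, 65.2% were called higher and 26% lower, so most probe sets differed as well. The differences were 3.25 for Stfa2l1, 2.23 for Lcn2, 1.78 for Hp, 1.67 for Ngp and 0.54 for Ltf. Camp had 0.33, Mmp9 -0.19 and Mmp8 -0.32. After quantile scaling those of Ltf and Mmp9 did not pass, and calibration turned those of Ltf and Camp. The TB13 arrays also differed from the others in their hybridization controls, and the part of this in the differences was not tested beyond the scalings given.

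Single arrays lay far from the other 3 of their line in 8 of 126 sets of 4 values looked at, where chance gives about 1 in 20. They were Camp at 35.7 in Trib1 replicate 1, Cd177 at 12.7 in TB14 replicate 2, Hp at 48.4 in Trib1 replicate 4, Stfa3 at 74.8 in TB14 replicate 2, Trem3 at 251.9 in TB14 replicate 4, Gfi1 at 151.7 in TB14 replicate 1 and at 32.3 in Trib1 replicate 2, and Mcpt8 at 689.9 in TB13 replicate 1.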

How the results depend on the processing

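Main counts over all probe sets, higher and lower, were 4542 and 11262 for TB13 against Trib1, 5169 and 3487 for TB14 against Trib1, 4533 and 9626 for both against Trib1, and 11385 and 4550 for TB14 against TB13. Quantile scaling left 2 granule probe sets higher in TB13, 0 lower in TB14 by limma (2 at an unadjusted p under 0.05), 1 lower in TB14 than in TB13, and 5878 of all lower in both. It turned Mmp9 to -0.11 in TB13 and 0.00082 between TB14 and TB13, and in TB13 Prtn3 to 0.023 and Gata1 to 0.35. Calibration on the controls gave 7 granule probe sets higher and 1 lower in TB13, 1 lower in both, 4 lower in TB14 than in TB13, and, over all, 13088 higher and 1900 lower in TB13, 12563 and 2030 in both, and 2371 and 12493 between TB14 and TB13. It turned Ltf to 0.40 in TB13, 0.077 in both and -0.64 between the lines, Camp to -0.92 between the lines, Mmp9 to 0.54 in both, and in TB13 Stfa2l1 to 0.89, Cux1 to 0.083, Cebpd to 0.88, Prtn3 to 0.093, Cma1 to 0.0027, Gata1 to 0.83, Cebpa to 0.034 and S100a8 to 0.50. Why the scalings differ was not tested. Stfa2l1, Hp, Ngp and Mmp8 in TB14, and Lcn2 and Mmp8 in TB13, kept direction and call under every alternative run for those comparisons.

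Without a filter, 2 granule probe sets were higher in TB13 and 4 lower in TB14 than in TB13, with 12230 of all higher in TB13, 9314 higher in both and 12326 lower between the lines, more probe sets being tested. The stricter filter left 1 lower in TB14 and 1 lower between the lines. With 1 probe set per gene, fewer being tested, 7135 were lower in TB13, 3034 higher in TB14, 6271 lower in both and 7118 higher between the lines. A 2-fold threshold left 135 higher and 2669 lower in TB13, 174 and 263 in TB14, 54 and 449 in both, and 3005 and 159 between the lines. Of the granule probe sets it left 1 lower in TB13, 0 lower in TB14, 2 higher and 1 lower in both, and 0 lower between the lines. As deposited, no granule probe set tested by limma was lower by 2-fold in TB14, against Trib1 or TB13, at any p. With line means, limma called 0 granule probe sets higher and 0 lower in both (0 and 0 at an unadjusted p under 0.05), and 1 higher and 13 lower of all. Without the 4 TB13 arrays 4509 were lower. Leaving out 1 array gave 1 to 2 granule probe sets higher in TB13, where 4433 to 4537 of all probe sets were. There were 2 without Trib1 replicate 1, TB13 replicate 2, TB13 replicate 4 or TB14 replicate 3. The same fits gave 0 to 3 lower in TB14, where 3148 to 3765 of all probe sets were. Without TB14 replicate 1, limma called 0 lower (2 at an unadjusted p under 0.05). Without Trib1 replicate 1, Trib1 replicate 2 or TB14 replicate 3, 1 was lower.

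With the replicate number as a block, 2 granule probe sets were higher in TB13, Camp being added (0.16, adjusted p = 0.0389). The numbers did not pair the arrays, and 5 of 12 arrays correlated best with their own number. Dim probe sets (Mmp9, Cd177, Fcnb) limit what can be said of tertiary granules.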
